A study of Caenorhabditis elegans with 2 samples.

Results

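The mitochondrial DNA of the nematode Caenorhabditis elegans is annotated with 36 genes, of 46926 annotated genes in the genome, and every one of them was followed here through the ChIP-seq peak lists of the transcription factor ZIP-11. They comprise 12 protein genes, 22 tRNA genes and 2 rRNA genes, all on the plus strand of 13794 bp of DNA. A peak was given to the gene that held its summit, its highest point. The values are the authors' own signal value of each peak, which is used here within a list only, or between the samples side by side.

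ChIP-seq precipitates sonicated chromatin with an antibody and maps the DNA that comes with it. The series holds 2 samples, which the labels number as biological replicates of a lone group, and no second condition. Both came from whole worms of strain OP761, in which the insertion wgIs761 carries zip-11::TY1 EGFP 3xFLAG and unc-119(+) in an unc-119(tm4063) background. The worms were L4 larvae aged 52.5 hours, synchronised by bleaching and starvation as L1 larvae, and the precipitating antibody was against GFP per the description, although the antibody label itself reads zip-11. The fusion protein comes from a transgene, and the labels name no change to the worm's own zip-11 gene. A whole-worm sample does not say from which tissue a peak came. No worms without the transgene were among the samples, and read counts per gene were not in the files used here, so the depth behind each value and the copy number of mitochondrial DNA are unknown.

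Mitochondrial DNA is a small circular genome, present in many copies per cell. It encodes core subunits of the respiratory chain together with the rRNAs and tRNAs that translate them, while all other mitochondrial proteins are encoded in the nucleus and imported. Complex I takes electrons from NADH, complex III passes them from ubiquinol to cytochrome c, complex IV hands them to oxygen, and complex V makes ATP. ZIP-11 belongs to the bZIP family, whose members bind DNA as dimers through a basic region. In C. elegans another bZIP factor, ATFS-1, is known to act both in the nucleus and in mitochondria during the mitochondrial unfolded protein response.

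The same 3 peaks led every one of the 4 thresholded lists, 1 of them in CYTB and the others in ND5. CYTB encodes cytochrome b, the mitochondrially encoded subunit of complex III, and ND5 encodes a proton-pumping subunit of complex I. The summits of these 3 peaks lay within 18, 0 and 24 bases of each other across the 4 lists. These lists rest on only 2 samples, since those made from both samples jointly share the same values for these peaks. Their sequences, with that of the peak in the longest noncoding stretch for contrast, are given because they carry the highest signal values of the mitochondrial DNA. Each is the plus strand, 5′ to 3′, from 50 bases before to 50 bases after the summit of the list made from both samples, read from the WBcel235 genome of RefSeq, with the 11 central bases in capitals. The CYTB window is MtDNA:4699-4799, inside the coding sequence. The window in the interior of ND5 is MtDNA:12408-12508. The window near the end of ND5 is MtDNA:13149-13249, also within the gene. The noncoding window is MtDNA:13644-13744.

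CYTB: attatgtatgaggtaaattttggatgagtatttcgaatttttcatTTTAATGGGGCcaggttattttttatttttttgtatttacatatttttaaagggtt

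ND5 interior: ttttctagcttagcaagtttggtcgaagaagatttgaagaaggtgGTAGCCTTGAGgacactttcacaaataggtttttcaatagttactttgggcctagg

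ND5 end: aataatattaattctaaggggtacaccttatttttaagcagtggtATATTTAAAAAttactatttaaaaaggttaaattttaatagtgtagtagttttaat

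noncoding: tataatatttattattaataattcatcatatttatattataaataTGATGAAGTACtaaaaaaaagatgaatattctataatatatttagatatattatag

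The 3 strong windows differed in base composition. GC content was 23.8% at CYTB, 39.6% in the interior of ND5 and 19.8% near the end of ND5, against 23.8% for the whole mitochondrial DNA and 10.9% in the noncoding window. Counting both strands, 3 words of 5 bases were present in all 3 strong windows, and 0 words of 6 bases.

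Almost every peak called on mitochondrial DNA passed the authors' threshold. Of the mitochondrial peaks in each ranked list, which holds peaks of any strength, the thresholded list held 21 of 23 for both samples together, 22 of 23 in the conservative version of that list, 24 of 24 for replicate 1 and 19 of 19 for replicate 2. Over the whole genome the share of ranked peaks in the thresholded list was 0.326%, 0.294%, 0.3% and 0.203% respectively. The peaks below the threshold in the list of both samples had their summits in tRNA-Ile, at a signal value of 51.8, and in the large rRNA gene, at 20.5.

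A thresholded summit lay in 12 of the 36 genes in the list of both samples, and in 12 in the conservative list. The count was 15 genes in replicate 1 and 11 in replicate 2. The share of all annotated genes holding a summit was 0.716%, 0.279% and 0.185% in the lists of both samples, of replicate 1 and of replicate 2. The same 11 genes held a summit in both samples and in their joint list, namely ND1, ATP6, ND2, CYTB, COX3, ND4, COX1, tRNA-Cys, COX2, the large rRNA gene and ND5. Thus 9 of these 11 genes encode proteins, as do 12 of all 36 genes. The protein genes also take up most of the DNA, since complexes I, III, IV and V make up 40.9%, 8.11%, 22.3% and 4.36% of its length. The count is therefore not read as a preference for protein genes. The other 4 of the 15 genes, tRNA-Asn, tRNA-Lys, tRNA-Thr and ND3, held a summit in replicate 1 but not in replicate 2. Among them, tRNA-Asn alone also held one in the joint and conservative lists, at 453.3. A further 21 genes held none in any of the 4 lists.

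**Figure D1:**
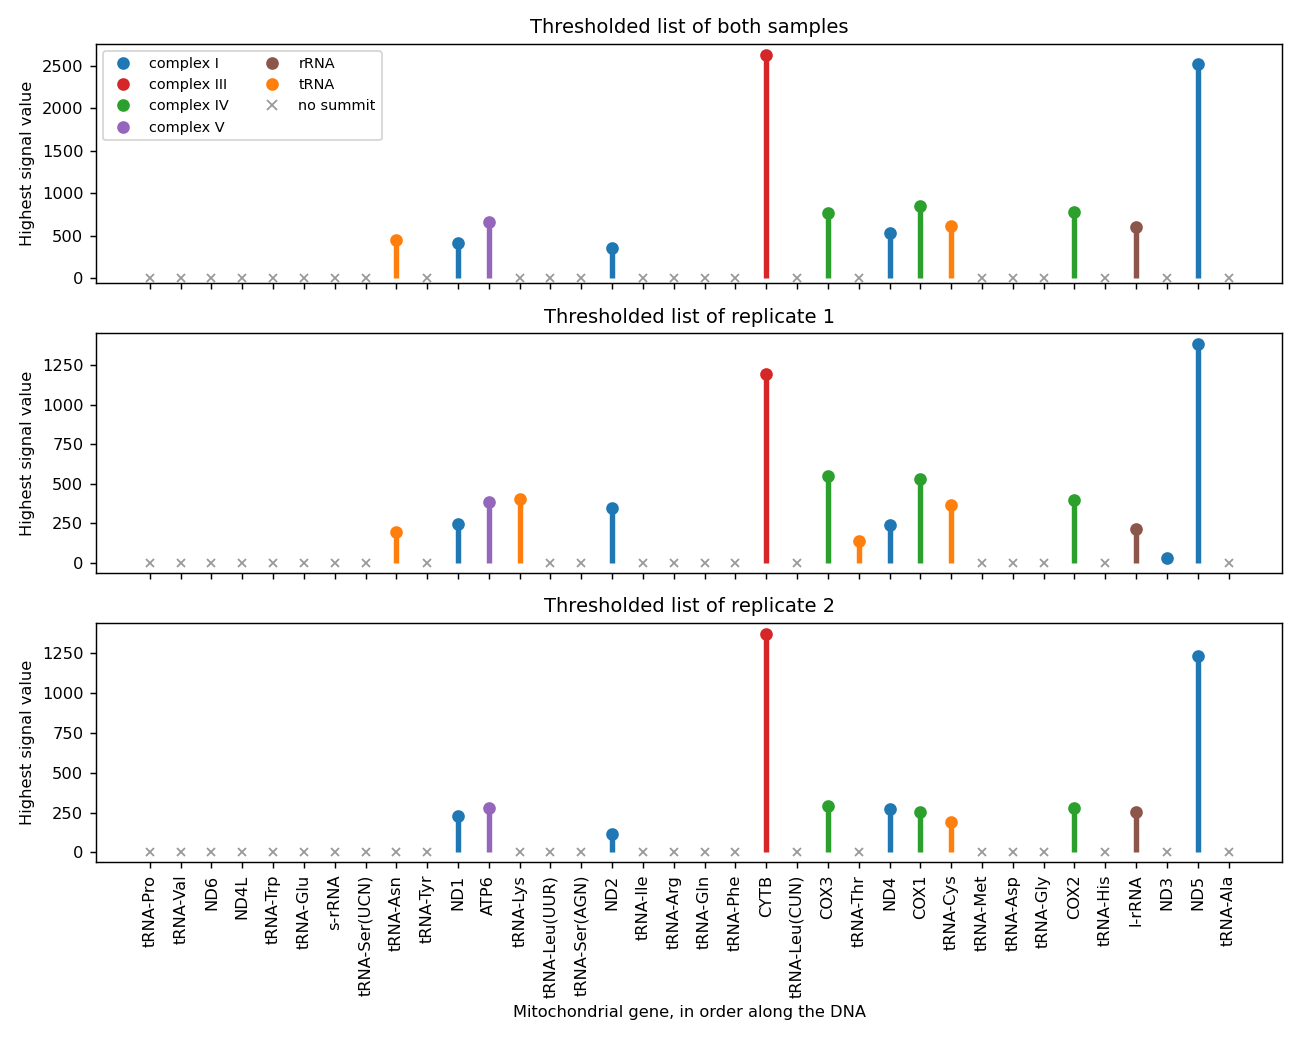
Highest signal value among the thresholded summits in each of the 36 mitochondrial genes, in their order along the DNA (x axis), in the list of both samples and in each sample (y axis, authors' signal value). Colours give the respiratory complex or RNA class, and grey crosses mark genes with no summit; CYTB and ND5 stand above all other genes in each panel.

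Within complex I, ND5 stood apart from the other subunit genes. Its peak near the gene's end (MtDNA:13056-13343) had a signal value of 1381 in replicate 1, 1228 in replicate 2 and 2521 in the list of both samples. The summit of the latter, at base 13199, lay 73 bases before the end of ND5, and the peak ran on across tRNA-Ala into the noncoding stretch. The peak in the interior of ND5 (MtDNA:12337-12595) had its summit at base 12458 in every list, with 938.0 in replicate 1, 1050 in replicate 2 and 2117 together. In each sample both ND5 peaks were higher than every peak of the other complex I genes, which reached 348.4 in replicate 1 and 271.9 in replicate 2.

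The other complex I genes held weaker peaks or none. ND1, which helps to form the ubiquinone site, held a matched peak of 246.8 in replicate 1 and 202.7 in replicate 2, and in replicate 2 a further summit near its start, which is described with tRNA-Asn. ND4, a proton-pumping subunit, held 2 matched peaks. The first was 243.5 in replicate 1 and 271.9 in replicate 2, and the other 219.3 and 57.8. The second peak of ND4 was the pair of mitochondrial peaks that differed most between the samples, at a ratio of 3.79. ND2, another proton-pumping subunit, had 348.4 in replicate 1 and 117.0 in replicate 2, at the same summit base. Replicate 1 had further peaks without a match in replicate 2, of 86.2 and 4.86 in ND1 and of 130.8 in ND2. ND3 held a weak peak of 34.6 in replicate 1 and none in replicate 2. ND6 and ND4L lay in the long stretch without peaks described further on, and no base of either was under a peak.

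In complex III, the CYTB peak (MtDNA:4619-4883) had 1196 in replicate 1, 1369 in replicate 2 and 2628 in the list of both samples. Its joint summit lay 245 bases after the gene's start. Replicate 1 also had a weaker CYTB peak of 156.5, which replicate 2 lacked and which stood at 205.2 in the joint list. In replicate 2 the peak in the 5′ part of the gene thus held its sole summit.

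Each of the 3 complex IV genes held a summit in every list. COX1, the catalytic subunit, had a matched peak of 530.6 in replicate 1 and 250.6 in replicate 2, and another of 196.3 and 144.3. Replicate 2 had a further COX1 peak of 144.5 between them, with no match in replicate 1. COX2, which receives electrons from cytochrome c, had 395.3 in replicate 1 and 275.8 in replicate 2. COX3 had 548.7 and 292.3 at its stronger peak and 173.9 and 118.1 at its weaker peak. All 5 matched peaks of complex IV were thus higher in replicate 1. COX3 was the highest gene after CYTB and ND5 in both samples, whereas in the joint list COX1 was, with 855.0 against 781.4 for COX2 and 762.3 for COX3. The samples therefore do not fix the order among the COX genes.

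ATP6, the complex V gene on this DNA, encodes the membrane subunit through which protons pass. Its matched peak had 385.5 in replicate 1 and 249.7 in replicate 2. A peak at the border of ATP6 and tRNA-Lys had 402.3 in replicate 1 and 281.3 in replicate 2. Its summit lay in tRNA-Lys in replicate 1, and 2 bases before the end of ATP6 in the joint list. The gene assignment of that peak thus rests on 23 bases.

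Of the 2 rRNA genes, only the large rRNA gene held a summit, with 216.2 in replicate 1, 255.7 in replicate 2 and 600.5 together. The small rRNA gene had 6.03% of its length under a peak in the joint list, 2.87% in replicate 1 and 0% in replicate 2. Of the 22 tRNA genes, which carry the amino acids for the mitochondrial ribosome, tRNA-Cys alone held a summit in both samples, at base 9429 in each, with 364.4 in replicate 1 and 192.3 in replicate 2. That base is 1 past the end of COX1, which overlaps the start of tRNA-Cys, and the peak covers both genes. The tRNA-Asn peak of replicate 1, at 199.1, was matched by a peak of replicate 2, at 226.2, whose summit lay 80 bases away in ND1. The tRNA-Thr peak of replicate 1 stood at 137.0 with no match in replicate 2. Although few summits lay in them, 49.0% of the length of the tRNA genes was under a peak in the joint list, since peaks were longer than these genes.

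Outside the genes, the longest noncoding stretch was the AT-rich region of 467 bp (MtDNA:13328-13794), at a GC content of 6.85%, and the next longest was 18 bp. It held 1 peak, with 149.3 in replicate 1, 115.9 in replicate 2 and 264.6 together, and summits within 6 bases of each other in the samples. In the joint list that peak ran to the last base of the reference, and the peak near the end of ND5 also entered the stretch, so that 55.0% of it was covered. The noncoding peak was below every matched peak of a protein gene in replicate 1, and below all but the weaker ND4 peak in replicate 2.

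Set against their length, the classes' shares of the peaks varied between the lists. In the joint list complex I genes held 33.3% of mitochondrial peaks on 40.9% of the length, and complex IV genes 28.6% on 22.3%. Complex V held 9.52% of the peaks on 4.36% of the length, complex III 9.52% on 8.11%, and the rRNA genes 4.76% on 11.9%. The tRNA genes held 9.52% on 8.83%. In replicate 1 the shares of complexes I, IV and V were close to their lengths, at 41.7%, 20.8% and 4.17% of peaks, and the tRNA genes held 16.7%. In replicate 2 complex I held 36.8%, complex IV 31.6%, complex V 10.5% and the tRNA genes 5.26%. The rRNA genes' share was below their length in each sample as well, at 4.17% and 5.26%. The signal was more concentrated than the peaks, since the 3 strongest peaks made up 47.0% of the summed mitochondrial signal in the joint list, 40.5% in replicate 1 and 53.3% in replicate 2. These shares rest on 21, 24 and 19 peaks, so 1 peak moves a share by several percentage points.

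**Figure D2:**
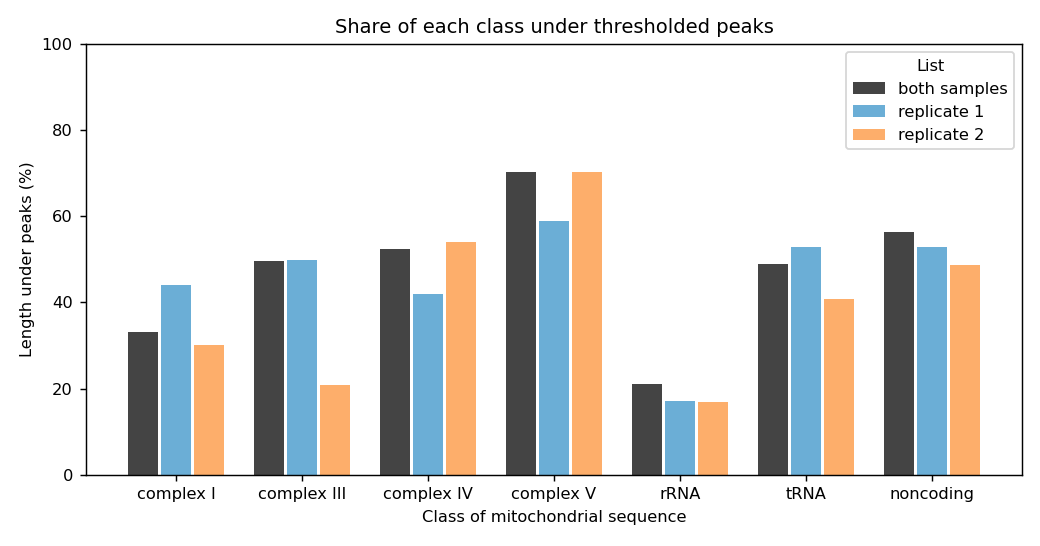
Share of the length of each class of mitochondrial sequence that lay under thresholded peaks (y axis, percent), for the list of both samples and for each sample (bars, 1 value each with no error). The rRNA genes were the least covered in each list, at 21.0% in the list of both samples and 17.2% in replicate 1, and ATP6 of complex V the most covered in each list, between 59.0% and 70.3%.

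Peaks covered 41.3% of the mitochondrial DNA in the joint list, 42.7% in replicate 1 and 36.6% in replicate 2. The longest stretch without a peak was the same at its start in all lists. It began at the first base of the reference, ran for 1551 bp in the joint list, 1573 bp in replicate 1 and 1638 bp in replicate 2, and held tRNA-Pro, tRNA-Val, ND6, ND4L, tRNA-Trp, tRNA-Glu and nearly all of the small rRNA gene. In the joint list other long stretches without a peak were MtDNA:11201-12336, with ND3 and the start of ND5, MtDNA:6226-7047, with the start of ND4, and MtDNA:3804-4618, with tRNA-Ile, tRNA-Arg, tRNA-Gln and tRNA-Phe. Altogether 11 genes, ND6, ND4L and 9 tRNA genes, had no base under a peak of any of the 4 thresholded lists. Neighbouring summits of the joint list were 200 to 1397 bases apart, with a median of 506.5.

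The order of the genes by their highest signal was similar only in part between the samples, and the similarity rested to a large degree on the strongest peaks. Of the mitochondrial peaks, 18 were matched between the samples, with summits up to 150 bases apart, and the median distance between matched summits was 35.5 bases. In 16 of the 18 pairs both summits lay in the same gene or both in none. Across the 18 peaks the signal values had a Spearman rho of 0.81 and a Pearson r of 0.95. Without the 3 highest peaks, rho was 0.67 and r was 0.59 over 15 peaks. Over the 11 genes with a summit in both samples, rho of the highest value per gene was 0.67. For ND1 and ATP6 that value came from different peaks in the samples, with summits at bases 2237 and 1779 in ND1 and 2877 and 3233 in ATP6. These are descriptions of 2 samples, and the peaks of a sample share its library and depth. The lists of both samples were also made with an alignment common to all lists, so their values are not fully independent.

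Replicate 1 had the higher value in 13 of the 18 matched peaks, at a median ratio to replicate 2 of 1.40 and a range of 0.846 to 3.79. The median nuclear thresholded peak had 51.5 in replicate 1, over 131 peaks, and 52.0 in replicate 2, over 89 peaks that were not matched to them. Whether the 2 lists share a scale was not tested. CYTB and the interior peak of ND5 were among the 5 peaks that were higher in replicate 2. From the highest gene downwards the order in replicate 1 was ND5, CYTB, COX3, COX1, tRNA-Lys, COX2, ATP6, tRNA-Cys, ND2, ND1, ND4, the large rRNA gene, tRNA-Asn, tRNA-Thr and ND3. In replicate 2 it was CYTB, ND5, COX3, ATP6, COX2, ND4, the large rRNA gene, COX1, ND1, tRNA-Cys and ND2. ND5 and CYTB changed places, so their order is not fixed by these samples. In both samples the lowest of the 3 strongest peaks was above the highest of the others, at 1.71 times in replicate 1 and 3.59 times in replicate 2. The 7 genes from COX3 to ND1 in the order of replicate 2 lay between 226.2 and 292.3 there, and between 216.2 and 548.7 in replicate 1. Neighbours among them are therefore not told apart by these samples.

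**Figure D3:**
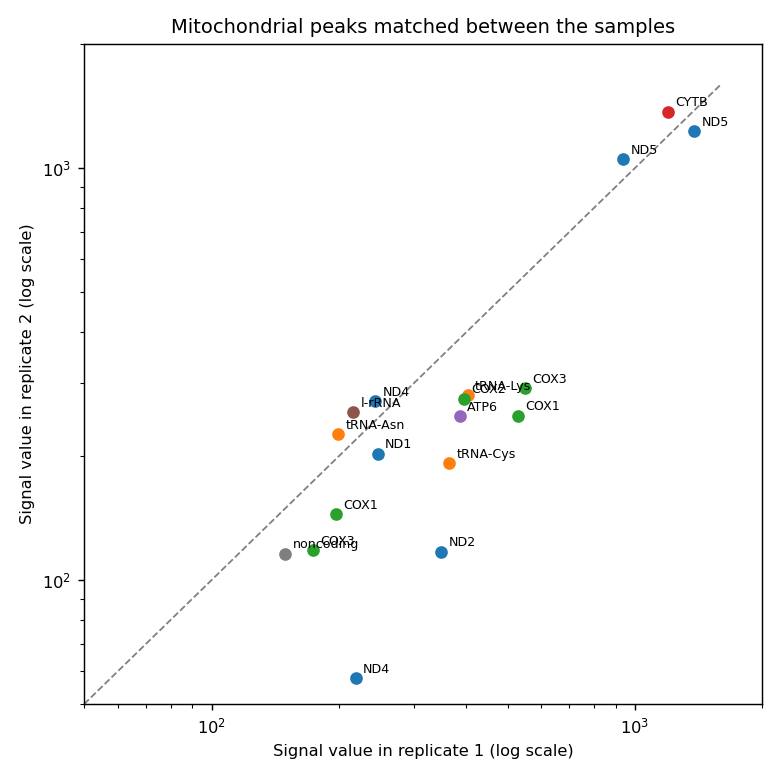
Signal values of the 18 mitochondrial peaks matched between replicate 1 (x axis) and replicate 2 (y axis), both on log scales, labelled by the gene that held the summit in replicate 1. The dashed line marks equal values; 13 points lie below it, and CYTB and the ND5 peaks lie apart from the rest at the upper right.

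Several peaks passed the authors' threshold at a signal value below the usual range. In COX1 a joint peak of 21.6 (MtDNA:8360-8639) ranked 353 of 364 in the thresholded list, and in ND1 a peak of 4.86 in replicate 1 ranked 153 of 155. Each overlapped a stronger peak of the same gene. These peaks had values of 4.49 and 4.27 for the −log10 of the global irreproducible discovery rate, the authors' measure of how well a peak repeats. Among the nuclear peaks of the thresholded lists similar low values also occurred, down to 2.28 in the joint list.

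Most mitochondrial peaks had no width of their own. In the joint list 17 of 21 were 280 bp wide, in replicate 1 20 of 24 were 250 bp and in replicate 2 15 of 19 were 280 bp, with the summit at the centre. Over all thresholded peaks, nuclear ones included, the counts at these widths were 357 of 364, 150 of 155 and 104 of 108. A standard width was therefore not particular to mitochondrial peaks, and was less common among them. The 3 strongest peaks had their own widths, at 265 bp in CYTB and at 259 and 288 bp in ND5. Between the samples, summits of peaks with their own widths lay 18 bases apart in CYTB, and 0 and 1 in ND5. The noncoding peak was cut off by the end of the reference. It started as far before its summit as the standard-width peaks of its list did, and its summits lay 6 bases apart. Matched peaks of the full standard width had summits 16 to 80 bases apart, except those of ND2 and tRNA-Cys, which kept their summit base in all 4 lists. The spread of 24 bases near the end of ND5 came from the joint summit, at base 13199. Gene assignments near a border, as at ATP6 and tRNA-Lys or at COX1 and tRNA-Cys, rest on a few bases.

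Compared with the nuclear genome, mitochondrial peaks stood high in each thresholded list once overlapping peaks were joined into regions. The ratio of the median mitochondrial to the median nuclear signal value was 7.85 in the joint list, 4.72 in replicate 1 and 4.68 in replicate 2. Mitochondrial regions above the highest nuclear region numbered 15 of 19, 17 of 22 and 14 of 18. They held 35.7%, 54.02% and 57.3% of the summed signal of all regions, on DNA that makes up 0.01375% of the genome's length. In the ranked lists this order was not complete: the highest nuclear peak had 403.1 in the joint ranked list and 762.0 in that of replicate 1, so that 13 of 23 and 3 of 24 mitochondrial peaks were above it. These nuclear peaks overlapped each other on chromosome X, and the thresholded lists did not hold them. Some ranked peaks with a global irreproducible discovery rate of at most 0.01 were also missing from the thresholded lists. They numbered 32 of 396 in the joint list, 30 of 185 in replicate 1 and 11 of 119 in replicate 2. The reason was not tested, and the comparison of regions above covers only peaks that the thresholded lists held.

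**Figure D4:**
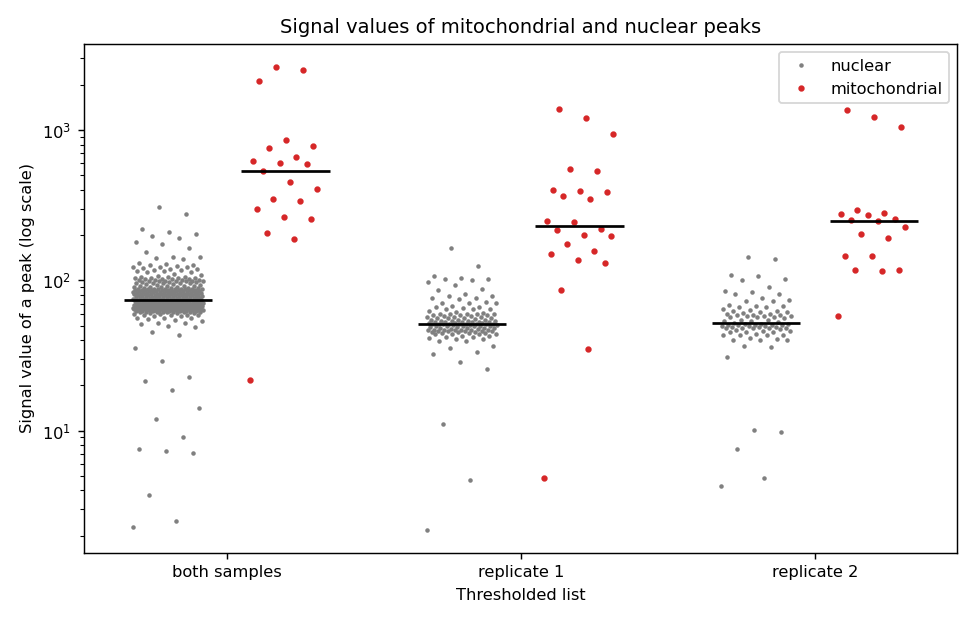
Signal value of every thresholded peak (y axis, log scale) on nuclear (grey) and mitochondrial (red) DNA, in the list of both samples and in each sample (x axis). Black lines are medians. Whether the lists share a scale was not tested. The highest nuclear peak had 306.3 in the joint list, 164.2 in replicate 1 and 142.7 in replicate 2.

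Sequence that mitochondrial and nuclear DNA share was rare. Of all 31-base words of the mitochondrial DNA, 0.160% also occurred in the nuclear genome of WBcel235, and none of the words under any mitochondrial peak did. GC content varied little with signal. The 21 joint peaks had a median GC content of 26.1%, against 24.3% over all mitochondrial windows of 280 bp, and rho of GC content and signal was 0.04 over the 21 peaks.

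None of 5 motifs of bZIP proteins lay within 50 bases of any of the 21 joint summits. These were the CRE core TGACGT, the AP-1 site TGANTCA, the ATF4-type site TGATGNAA, the PAR site TTACGTAA and the C/EBP site TTGCGCAA, searched on both strands, and none of them contains another. The CRE core occurred once in the mitochondrial DNA, in the large rRNA gene at MtDNA:11230-11235, 169 bases from the nearest joint summit. A weak thresholded peak of the conservative list lay over it, at a signal value of 20.5 and with its summit at base 11292. The site is shown in capitals with the bases around it (MtDNA:11218-11247, plus strand) as the sole such site.

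CRE core: tattaattaatcTGACGTgatattagttta

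The PAR site occurred once as well, in ND6, where no list had a peak, and the other 3 motifs were absent from this DNA. The share of all mitochondrial windows of the same length with the CRE core was 0.701%, against 3.48% of nuclear ranked peaks and 1.75% of nuclear thresholded peaks. The TATA-like word TATAAA, which is not a bZIP motif, lay near 3 of the 21 joint summits, or 14.3%, whereas 33.5% of all mitochondrial windows held it. A match of letters is not a bound site, and the preferred sequence of ZIP-11 was not derived here.

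A few nuclear genes of mitochondrial function lay near a region. Of 183 nuclear genes in 5 lists, 4 had a transcription start within 1000 bp of a joint region's summit, or 2.19%, against 1.06% of all nuclear protein-coding genes. With 4 genes this count says little about the lists as a whole. Of 67 genes for nuclear respiratory chain subunits and assembly factors, only cox-6A, a complex IV subunit, was among them, at 67.0 in the joint list and in neither sample's own list. Of 15 genes of the mitochondrial unfolded protein response, hsp-60, the mitochondrial chaperonin, was, at 101.5 together and 66.2 in replicate 2. Of 70 mitochondrial ribosomal protein genes there were 2, mrpl-23 at 115.0 together and 68.7 in replicate 2, and mrpl-32 at 68.9 and 45.2. None of 16 genes in the list for the maintenance and transcription of mitochondrial DNA had one. That list was broad and also held phb-1, phb-2, mtp-18 and ttm-1. None of 16 genes for mitochondrial aminoacyl-tRNA synthetases had one either. A snRNA gene lay near the cox-6A region and a snoRNA gene near that of mrpl-23, so each region has more than 1 neighbouring gene. All 4 values were below the lowest value among the mitochondrial regions of the joint list, 205.2.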

How the data were processed

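The authors deposited, per the labels and the notes beside them, ENCODE peak lists on assembly ce11, whose coordinates are those of WBcel235: for each of the 2 samples a thresholded and a ranked list, and from both samples jointly a thresholded and a stricter, conservative list, again with the ranked ones. Each was derived from the alignments of its own sample or samples and an alignment common to all lists, and the thresholded lists also from a file the notes do not describe. Aligner, peak caller, versions and the signal value's formula were not given in the sources used here. Columns used, as deposited, were the signal value, the summit offset and the −log10 of the global irreproducible discovery rate. The depth is unknown. In the ranked lists, 8 columns of the inputs' signal values were not used, because their samples are not named.

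Genes came from Ensembl release 115 and names from RefSeq. The gene that held a summit received the peak. Overlapping peaks were joined into regions only for comparison with nuclear DNA. Sample peaks were matched at summits up to 150 bp apart. Motifs were sought within 50 bp of summits, and the nuclear lists by starts within 1000 bp. With 2 samples of 1 group no test was made, and no p-value is given. Every mitochondrial gene was counted, and signal values were given for the genes that held a summit. The members, lists and measures were chosen with earlier results of these data known. Scripts were tested on simulated data with Python 3.11.15, numpy 2.4.6 and scipy 1.17.1. Alternatives were the lists, the gene rule, joining, correlation measure, motif window and start distance.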

Additional observations from a re-analysis of the deposited data

How the results depend on the processing

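Of 38 alternatives for 8 results, 19 left the result the same and 19 moved it. None reversed, although a count, share or ratio has no direction that could readily reverse. The mitochondrial regions, 19 in the joint list, numbered 17 to 22 under the alternatives run. The genes holding a summit, 12, numbered 10 by most bases under the peak, 13 with no threshold, 16 within 50 bp of the summit and 11 to 15 in the samples alone. Windows of 25 and 100 bp around the joint summits could hold no bZIP motif either, since both sites on this DNA lie farther from any joint summit. Summits of the conservative list, which had a peak over the CRE core, were not searched. The share of regions on mitochondrial DNA, 5.44% in the joint list, was 10.9% among the upper 50% of regions by signal value and 14.7% to 17.6% in the lists of the samples alone. The ratio of median signal values, 7.85, was 7.60 in the conservative list, 24.8 with no threshold, 7.13 with every peak on its own, 7.94 with peaks joined up to 100 bp apart, 6.50 without the 3 strongest regions (chosen after seeing the data) and 4.68 to 4.72 in the samples alone. The correlation of the samples, 0.81, was 0.86 as Pearson r of log2 values and 0.73 without the highest 2 peaks. The order of genes had a rho with the reported order of 0.88 by summed signal, 0.94 by any overlapping peak and 0.75 to 0.85 in the samples alone. The reported order is that of the joint list, which was made from the same samples, so these values do not measure how well the order repeats. Between the samples rho was 0.67 over 11 genes. The nuclear genes with a region, 4, numbered 1 within 500 bp, 8 within 2000 bp, and 0 in replicate 1 to 3 in replicate 2. The cause was not tested. No paired analysis was possible because the samples form 1 group and no result comes from a test. Without read counts, no counting error could be set beside a signal value, and a region without a peak cannot be told from one too shallow to call.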
